A study of Danio rerio with 2 samples.

Results

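The genes described here are 7 genes for secreted factors and receptors that link the cranial neural crest to blood vessels and to growth factor signaling: the ligands *apln*, *adma*, *vegfaa*, *hgfa* and *pdgfbb* and the receptors *pdgfra* and *pdgfrb*. They were taken by symbol from the 24737 gene symbols (25434 features) of the count files, and all 7 were found. The rule uses no measured value, but the genes were chosen with earlier results of these data known. They were followed across the crest cell types of zebrafish embryos in 2 single-cell RNA-seq libraries, 1 of embryos kept in DMSO and 1 of embryos kept in YM. YM (YM-254890) inhibits proteins of the Gq/11 family, through which many receptors signal, and the study asks what this does to cranial neural crest cells (NCCs).

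Embryos of both groups carried the transgenes *sox10:mRFP* and *fli1a:EGFP*, and cells positive for both reporters were sorted at 36 h post-fertilization (hpf). One group was kept in 100 µM YM and the other in DMSO, the solvent, in each case from 16 to 36 hpf. Each group began with 70 embryos, less 10 that were kept back, and dissociated heads were pooled. Sorting yielded 72000 cells from DMSO and 86000 from YM embryos, and 8000 of each went into a library. As *fli1a* also drives expression in endothelium and some blood cells, the gate is not limited to crest. Each group is 1 pool and 1 library, so differences between them could not be checked against replicates and carry no p-value. All intervals are exact 95% intervals that cover counting error only.

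In vertebrates, Apelin (*apln*), Adrenomedullin (*adma*) and Vegfa (*vegfaa*) are secreted and act on receptors of endothelial cells, where they direct the growth of blood and lymphatic vessels. Pdgfb is best known as the signal that recruits mural cells (pericytes and smooth muscle) carrying Pdgfrb to vessel walls, whereas Pdgfra is a general receptor of crest mesenchyme needed for its migration and for midface development. Hgf acts through the receptor Met on epithelia, migrating muscle precursors and neurons. Cranial crest of the frontonasal region and the pharyngeal arches makes the skeleton of the face and part of the mural cells of head vessels.

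The libraries held 25340682 (DMSO) and 33649382 (YM) unique molecular identifiers (UMIs). After cell calling and the filters of the methods, 3612 DMSO and 4429 YM cells remained, with medians of 5866 and 6527 UMIs, and the libraries shared 5 cell barcodes. Crest-like cells, named from fixed marker genes, numbered 3471 in DMSO and 4268 in YM. They fell into 6 classes, which are frontonasal-like (787 DMSO and 1066 YM cells), dorsal arch 1-like (875 and 1063), dorsal arch 2-like (373 and 655), ventral arch-like (705 and 632), posterior arch-like (446 and 563) and *gata3*-positive-like (285 and 289). Of the markers that name dorsal arch 1-like cells, *igfbp5b*, *grem2b* and *emx2* are intermediate domain genes in the study's methods. The name therefore does not part dorsal from intermediate cells of arch 1. The 7 genes took no part in the clustering. Levels are in CPM, the UMIs of a gene per 1000000 UMIs of its class, and ratios are log2 of YM over DMSO. A gene was called higher or lower at 1.5-fold where it had at least 50 UMIs in both libraries together. The part of a cell's UMIs from free RNA was estimated from hemoglobin UMIs outside erythroid-like cells, at 2.37% in DMSO and 0.365% in YM. In DMSO, 1130 of the 1303 UMIs of the 11 erythroid markers in crest-like cells lay in dorsal arch 1-like cells. The DMSO estimate includes that class and was not made without it, so the 2 estimates are not compared.

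Over all crest-like cells, the levels of the 7 genes were close in the 2 libraries. None of the 7 was called, beside 4.16% of the 10996 features tested. The median log2 ratio of the 7 genes was 0.12, and that of all features tested was -0.05. By class, 32 of the 42 gene and class pairs had enough UMIs, and 3 of them were called, all higher in YM. These were *vegfaa* in dorsal arch 1-like cells (1 of 6 genes tested, beside 5.46% of all features in either direction and 2.26% higher), and *hgfa* and *pdgfrb* in ventral arch-like cells (2 of 6, beside 6.1% in either direction and 2.59% higher). No gene was called in frontonasal-like (0 of 5, beside 5.41%), dorsal arch 2-like (0 of 6, beside 6.85%), posterior arch-like (0 of 6, beside 5.93%) or *gata3*-positive-like cells (0 of 3, beside 5.94%). With so few genes, these shares are counts and not a result about the group. For each of the 7 genes, the highest and the lowest class in DMSO lay further apart than the 2 libraries did in any class with enough UMIs. In DMSO, 5 of the 7 genes were at least 2-fold higher in 1 class than in the other crest-like cells, and in YM 4 were. Of all features, 9.8% in DMSO and 10.2% in YM passed this limit in frontonasal-like cells. These shares were 0.878% and 0.842% in dorsal arch 2-like and 1.21% and 1.18% in ventral arch-like cells. The share passing it in any 1 of the 6 classes was not computed, so the count is not a result about the group.

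**Figure D1:**
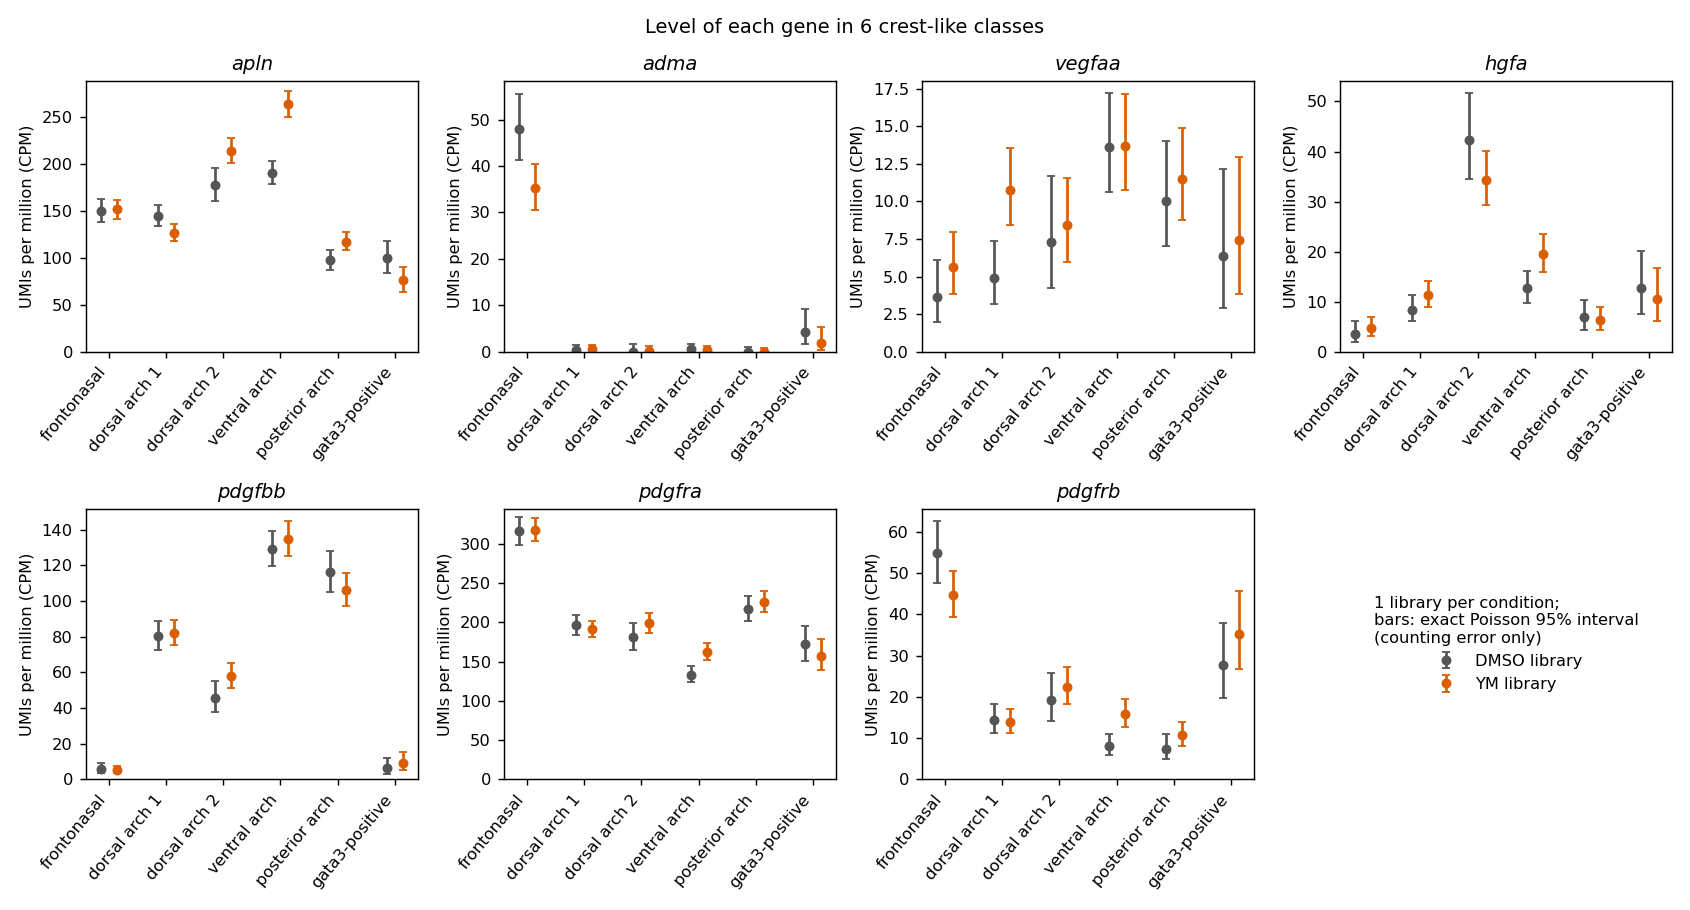
Level of each of the 7 genes (CPM of the class) in the 6 crest-like classes, DMSO library in grey and YM library in orange, with exact Poisson 95% intervals for counting error. *adma* was near 0 outside the frontonasal-like class, *pdgfbb* was low in the frontonasal-like and *gata3*-positive-like classes, and *hgfa* was highest in dorsal arch 2-like cells in both libraries.

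*apln* encodes the ligand of the Apelin receptors, which act in migrating heart precursors and in endothelium. Its level in crest-like cells was 149.8 CPM in DMSO (3157 UMIs) and 167 CPM in YM (4862 UMIs), a log2 ratio of 0.16 (0.09 to 0.22). In DMSO it was highest in ventral arch-like cells at 191 CPM (179 to 203), followed by dorsal arch 2-like cells at 178 CPM (161 to 196), and these intervals overlap. Frontonasal-like cells at 150.2 CPM (138 to 163) came next, overlapping dorsal arch 2-like cells and also dorsal arch 1-like cells at 145 CPM. *gata3*-positive-like cells at 100.1 CPM and posterior arch-like cells at 97.7 CPM were lowest and overlap each other. The order in YM began in the same way but was wider, from 264 CPM (250.4 to 278) in ventral arch-like cells and 214 CPM (201 to 228) in dorsal arch 2-like cells to 76.0 CPM (63.2 to 90.7) in *gata3*-positive-like cells.

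In ventral arch-like cells the YM level of *apln* was thus 1.38 times that in DMSO (log2 ratio 0.47, 0.35 to 0.59), which is under the 1.5-fold call. The study lists *apln* among the genes it found changed in ventral arch cells of these same libraries, so the direction is not independent evidence. The log2 ratio was 0.27 (0.10 to 0.44) in dorsal arch 2-like cells and 0.26 (0.07 to 0.46) in posterior arch-like cells, and it was 0.02 in frontonasal-like cells. It was negative in dorsal arch 1-like cells at -0.19 (-0.34 to -0.04) and in *gata3*-positive-like cells at -0.40 (-0.76 to -0.04). Cells were also thinned to 3500 UMIs each, so that shares of cells holding a UMI stood at equal depth. Of thinned ventral arch-like cells, 40.9% in DMSO (278 of 680, 37.2% to 44.7%) and 53.0% in YM (329 of 621, 49.0% to 57.0%) had an *apln* UMI. Unthinned, these shares were 58.4% and 72.6%, at median depths of 7032 and 8324 UMIs. In dorsal arch 1-like, dorsal arch 2-like, posterior arch-like and *gata3*-positive-like cells, the intervals of the thinned shares overlapped between the libraries. In blood-like cells, which should lack the gene, the thinned shares were 1.43% (1 of 70) and 4.69% (3 of 64), at median depths of 8566 and 9626 UMIs.

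Within classes, *apln* did not follow the class names alone. Of the 2 dorsal arch 2-like clusters, the one led by *pax9* had 143 CPM in DMSO and 218 CPM in YM (log2 ratio 0.61, 0.35 to 0.87), while the one with *cacna2d3* among its leading genes had 213 and 211 CPM (-0.01, -0.23 to 0.21). Both ventral arch-like clusters were higher in YM, at 0.39 (0.24 to 0.55) in the larger and 0.59 (0.41 to 0.78) in the one led by *hmx4*. In ventral arch-like cells the ratio was above 0 in each phase of the cell cycle, at 0.37 in G1, 0.72 in S and 0.39 in G2M. Over the 10 crest-like clusters in both libraries (20 points, which share clusters and libraries), the genes most like *apln* in log2(CPM + 1) were *col6a1* (Pearson r of 0.86), *col6a2* (0.82) and *rhoub* (0.80). The first and second encode chains of collagen VI, an extracellular matrix protein.

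*adma*, the zebrafish adrenomedullin gene named in this group, was a frontonasal gene in these libraries. Frontonasal-like cells held 185 of its 196 crest UMIs in DMSO and 200 of 210 in YM. Its level there was 48.1 CPM (41.4 to 55.5) in DMSO and 35.2 CPM (30.5 to 40.4) in YM, which is 75.3-fold (41.1 to 153) and 82.6-fold (44.0 to 175) above the other crest-like cells. At least 2-fold higher levels in this class were found for 9.8% of all features in DMSO and 10.2% in YM. No *adma* UMI was found in posterior arch-like cells of either library, which allows up to 1.06 CPM in DMSO and 0.73 CPM in YM. *gata3*-positive-like cells came second with 6 and 3 UMIs.

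A UMI of *adma* was found in 103 of 787 DMSO and 129 of 1066 YM cells, with at most 8 UMIs in a cell, and at this depth a cell without a UMI may still express it. After thinning, the share was 10.9% (8.57% to 13.7%) in DMSO and 9.37% (7.52% to 11.5%) in YM, with 0 of 70 and 1 of 64 blood-like cells; 0 of 70 allows a share of up to 4.29%. The larger frontonasal-like cluster, led by *pitx3*, had 52.8 CPM in DMSO and 41.7 CPM in YM, and *adma* was itself among its 10 leading genes. The smaller one, with *zic2a* and *csf1b* among its leading genes, had 33 and 29 UMIs, a log2 ratio of -0.89 (-1.66 to -0.12), so that the 1.5-fold limit was passed there but not in the class. Between the libraries, the log2 ratio in frontonasal-like cells was -0.45 (-0.74 to -0.15), lower in YM but under the 1.5-fold call. The most similar genes were *lmx1bb* (r of 0.97), *wnt11* (0.96) and *fgfr4* (0.96), 2 of which, *lmx1bb* and *wnt11*, are among the markers used to name frontonasal-like cells.

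*vegfaa* encodes a main form of Vegfa, the central growth signal for endothelium. Few UMIs were found, 169 in DMSO and 288 in YM crest-like cells, which is 8.02 and 9.89 CPM (log2 ratio 0.30, 0.02 to 0.58). It was highest in ventral arch-like cells in both libraries, at 13.6 CPM (10.6 to 17.2) and 13.7 CPM (10.8 to 17.2). This was 2.20-fold above the other crest-like cells in DMSO and 1.52-fold in YM, and 1.21% of all features in DMSO and 1.18% in YM were at least 2-fold higher in this class. The DMSO difference was under 2-fold at a clustering resolution of 1.2, with all 2000 variable genes and without cell cycle regression. Each neighbour in the order of classes overlapped the next, down to frontonasal-like cells at 3.64 and 5.63 CPM.

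The largest ratio among all called values was that of *vegfaa* in dorsal arch 1-like cells, with 24 UMIs (4.93 CPM, 3.16 to 7.34) in DMSO and 72 UMIs (10.8 CPM, 8.42 to 13.6) in YM. The log2 ratio was 1.13 (0.44 to 1.86), or 2.18-fold. These UMIs lay in 23 DMSO and 61 YM cells, with at most 4 in a cell. Both dorsal arch 1-like clusters were higher in YM. The one led by *nrp1a* had 5.19 and 10.2 CPM (15 and 44 UMIs, log2 ratio 0.98, 0.10 to 1.93). The one led by *gbx2* had 4.56 and 11.8 CPM, from 9 and 28 UMIs, too few for a call. Of thinned cells, 1.27% (0.61% to 2.32%) in DMSO and 3.32% (2.30% to 4.64%) in YM had a UMI, beside 0 of 70 and 0 of 64 blood-like cells. Without regression on the cell cycle the ratio was 0.49 and at a coarser clustering 0.55, both under the call. In cells thinned to 3500 UMIs, where 25 instead of 32 values had enough UMIs, it was not among the called values. That alone does not show a smaller ratio, as a value with too few UMIs cannot be called. The thinned shares above rest on 10 DMSO and 33 YM cells with a UMI. The 11 erythroid markers together had 232 CPM in dorsal arch 1-like cells of DMSO and 13.9 CPM in those of YM. Erythroid-like cells, 11 in DMSO and 16 in YM, had no *vegfaa* UMI, which allows up to 24.4 and 15.9 CPM. The 9 ventral markers together had 1384 CPM in dorsal arch 1-like cells of DMSO and 724 CPM in those of YM. The 6 markers of the class itself had 691 and 669 CPM. Of its thinned cells, 298 of 787 in DMSO and 265 of 993 in YM had UMIs of at least 3 of the 14 intermediate domain genes in the study's methods. The part of these marker lists and of this mix of cells in the *vegfaa* value was not tested. The genes most like *vegfaa* over the clusters were *setdb1a* (r of 0.90), *mat2aa* (0.90) and *nap1l1* (0.85).

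*hgfa* encodes hepatocyte growth factor, which guides migrating muscle precursors and motor axons. It was a gene of dorsal arch 2-like cells, at 42.4 CPM (34.4 to 51.6) in DMSO and 34.4 CPM (29.3 to 40.2) in YM, or 4.90-fold (3.78 to 6.33) and 3.26-fold (2.66 to 3.98) above the other crest-like cells. Only 0.878% of all features in DMSO and 0.842% in YM were at least 2-fold higher in this class. In DMSO the level was 41.4 CPM (85 UMIs, 320 cells in all) in cells with a UMI of *hoxa2b* or *hoxb2a*, *Hox* genes of arch 2. It was 49.2 CPM in cells without one, which rests on 14 UMIs (53 cells in all). The 11 posterior arch markers together were at 33.6 CPM in the first set and 236 CPM in the second. Frontonasal-like cells were lowest, at 3.64 CPM in DMSO and 4.75 CPM in YM, and overlapped posterior arch-like cells in both.

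Ventral arch-like cells had 65 *hgfa* UMIs (12.7 CPM, 9.78 to 16.1) in DMSO and 107 UMIs (19.5 CPM, 16.0 to 23.6) in YM. This was a log2 ratio of 0.63 (0.17 to 1.09), just past 1.5-fold. In cells thinned to 3500 UMIs it was 0.08, under the call. The UMIs lay in 53 DMSO and 85 YM cells. In dorsal arch 2-like cells, the ratio had the other sign at -0.30 (-0.67 to 0.08), an interval that includes 0. At a clustering resolution of 0.3 the ratio was 0.36, and the DMSO level of *hgfa* in the class was 23.7 CPM. Thinned shares in dorsal arch 2-like cells were 13.7% in DMSO (49 of 357) and 11.0% in YM (69 of 627), and no thinned blood-like cell had a UMI. *meis1b* (r of 0.86), *fzd4* (0.86) and *foxk2* (0.84) were the most similar genes.

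*pdgfbb*, a zebrafish gene for Pdgfb, was expressed along the arches and hardly in the frontonasal-like and *gata3*-positive-like classes. In DMSO its level was 129 CPM (120 to 139) in ventral arch-like, 116 CPM (105 to 128) in posterior arch-like, 80.3 CPM (72.6 to 88.7) in dorsal arch 1-like and 45.8 CPM (37.5 to 55.4) in dorsal arch 2-like cells. In *gata3*-positive-like and frontonasal-like cells it was 6.39 CPM (2.92 to 12.1) and 5.98 CPM (3.79 to 8.97). The order was the same in YM, with 135, 106, 82.2, 57.8, 9.27 and 5.46 CPM. Only the last pair in either library, and the first pair in DMSO, overlapped. Ventral arch-like cells had 2.20-fold and 2.28-fold more than the other crest-like cells. Frontonasal-like cells held 23 of the 1598 UMIs in DMSO and 31 of the 2136 in YM, where they were 16.4-fold below the others, and 3.5% of all features in DMSO and 3.43% in YM were at least 2-fold lower in that class. *gata3*-positive-like cells were 12.7-fold and 8.31-fold below, where 6.77% and 7.65% of all features were.

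No difference of *pdgfbb* between the libraries was called. Over crest-like cells the log2 ratio was -0.05 (-0.14 to 0.05), and in the classes tested it ran from -0.13 in posterior arch-like and frontonasal-like cells to 0.33 (0.01 to 0.67) in dorsal arch 2-like cells. Of thinned crest-like cells, 554 of 3102 in DMSO and 695 of 3923 in YM had a UMI, and 1.43% and 3.12% of blood-like cells did. The shares in frontonasal-like cells were 1.79% (0.90% to 3.19%) and 1.49% (0.79% to 2.53%), above the blood-like share in DMSO and below it in YM, with intervals that overlap in both. Blood-like cells are not free of *pdgfbb*, as erythroid-like cells held 5 UMIs in each library, so whether frontonasal-like cells express it at a low level was not settled. The most similar gene was *dlx2a* (r of 0.96), a transcription factor gene of arch crest, followed by *mibp2* (0.94) and *aamp* (0.92).

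*pdgfra* encodes the Pdgf receptor of crest mesenchyme and was found in every crest-like class. Its level was highest in frontonasal-like cells, at 316 CPM (298 to 334) in DMSO and 317 CPM (303 to 332) in YM, and within that class it reached 401 and 435 CPM in the smaller cluster. Posterior arch-like cells followed with 217 and 226 CPM. In DMSO it was lowest in ventral arch-like cells at 133 CPM (124 to 144), below *gata3*-positive-like cells at 172 CPM. In YM, ventral arch-like cells at 163 CPM (152 to 174) and *gata3*-positive-like cells at 158 CPM (139 to 178) overlapped at the bottom of the order.

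The log2 ratio of *pdgfra* over crest-like cells was 0.09 (0.03 to 0.14). Of the classes, only ventral arch-like cells had an interval apart from 0, with a log2 ratio of 0.28 (0.14 to 0.43). Of thinned crest-like cells, 47.2% (45.4% to 48.9%) in DMSO and 48.6% (47.0% to 50.1%) in YM carried it, and 2 of 70 and 0 of 64 blood-like cells did. The genes most like it were *pcdh2g28* (r of 0.91), *rrbp1a* (0.90) and *zgc:66433* (0.89).

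*pdgfrb* encodes the receptor that marks mural cells and their precursors. It was highest in frontonasal-like cells, at 54.8 CPM (47.7 to 62.7) in DMSO and 44.7 CPM (39.4 to 50.6) in YM, which is 4.25-fold (3.51 to 5.16) and 2.66-fold (2.26 to 3.12) above the other crest-like cells. *gata3*-positive-like cells came second at 27.7 CPM (19.7 to 37.8) and 35.2 CPM (26.7 to 45.6), apart from the first in DMSO and overlapping it in YM. Posterior arch-like cells were lowest in both, at 7.47 and 10.7 CPM, and overlapped the next class in both. In frontonasal-like cells it was found in 158 of 787 DMSO and 193 of 1066 YM cells, and the thinned shares were 15.0% and 12.9%, with no blood-like cell of 70 and 64.

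The 2 classes with the highest *pdgfrb* levels thus had the lowest levels of its ligand gene *pdgfbb* in both libraries. Second place for *pdgfrb* is not settled, as *gata3*-positive-like and dorsal arch 2-like cells overlap in both. Their intervals were 19.7 to 37.8 and 14.1 to 25.8 CPM in DMSO, and 26.7 to 45.6 and 18.4 to 27.3 CPM in YM. In the 3 clusters of the frontonasal-like and *gata3*-positive-like classes, *pdgfbb* ran from 5.07 to 9.27 CPM and *pdgfrb* from 27.7 to 70.0 CPM over both libraries. In the 7 arch clusters, *pdgfbb* ran from 44.1 to 142 CPM and *pdgfrb* from 6.91 to 22.5 CPM. These ranges leave out the intervals. For *pdgfrb*, those of the *gata3*-positive-like cluster and of the dorsal arch 2-like clusters overlap in both libraries. How many of all features separate these 2 groups of clusters was not counted. In frontonasal-like cells alone, 9.8% of all features in DMSO were at least 2-fold higher and 3.5% at least 2-fold lower. The clusters share libraries and cells of like type, so this is a description of 2 groups of clusters with no test. The genes most like *pdgfrb* were *marcksl1b* (r of 0.93), *cd81a* (0.93) and *flna* (0.93).

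**Figure D2:**
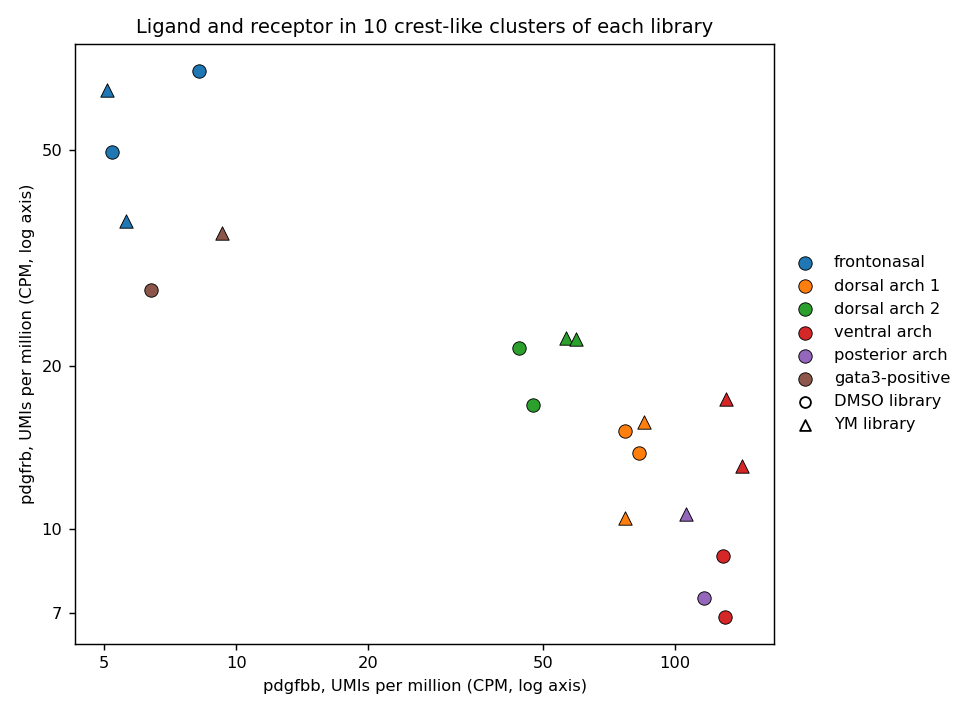
Level of *pdgfbb* (horizontal) and *pdgfrb* (vertical), both in CPM on log axes, in the 10 crest-like clusters of the DMSO (circles) and YM (triangles) library, colored by class. Frontonasal-like and *gata3*-positive-like clusters lie at the upper left, with *pdgfbb* under 10 CPM, and arch clusters at the lower right.

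Between the libraries, *pdgfrb* in ventral arch-like cells was called higher in YM, from 42 UMIs (8.19 CPM, 5.90 to 11.1) in DMSO to 87 UMIs (15.9 CPM, 12.7 to 19.6), a log2 ratio of 0.96 (0.41 to 1.52). In frontonasal-like cells, the log2 ratio was -0.29 (-0.56 to -0.02). The ventral UMIs lay in 40 DMSO and 69 YM cells, and of thinned cells 3.24% (2.04% to 4.86%) and 4.83% (3.28% to 6.82%) had one, intervals that overlap. Near-empty barcodes had *pdgfrb* at 16.3 CPM in YM and 7.17 CPM in DMSO, levels for which no interval was computed. With free RNA subtracted by the estimates given above, the ventral ratio was 0.95. At estimates of 2.37% in DMSO and 0.365% in YM, which are not compared, the subtraction could hardly change the ratio. The part of free RNA in the *pdgfrb* value was therefore not tested by it. In ventral arch-like cells, the 15 endothelial markers together were at 3.12 CPM in DMSO and 5.30 CPM in YM, and the 9 mural markers at 155 and 161 CPM. Of the 9 mural markers, 5 in DMSO and 3 in YM had a UMI there. Over all crest-like cells the mural markers were at 140 and 151 CPM, of which *notch3* alone made up 126 and 133 CPM. The part of these markers in the *pdgfrb* value was not tested.

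**Figure D3:**
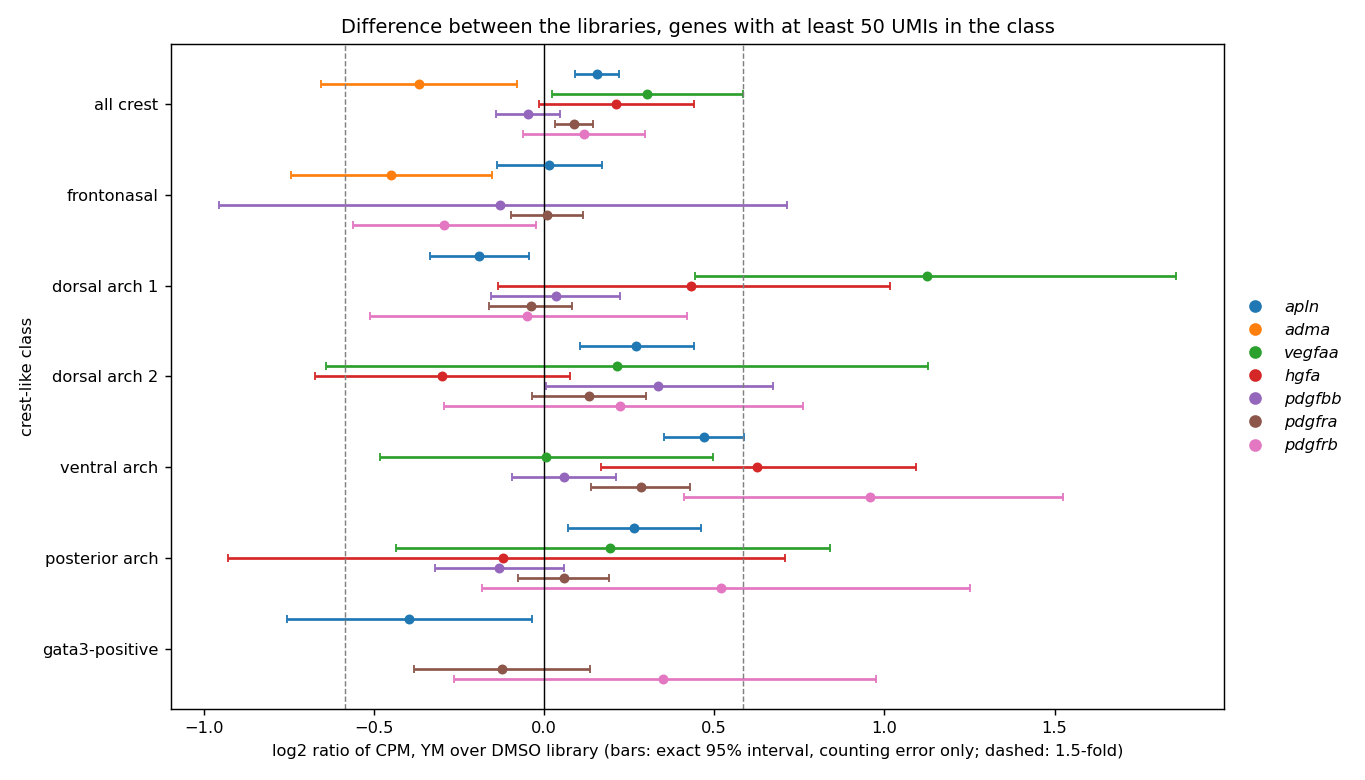
Log2 ratio of CPM, YM over DMSO library, of each gene over all crest-like cells and in each class where it had at least 50 UMIs, with exact 95% intervals for counting error; dashed lines mark 1.5-fold. The points past the upper line are *vegfaa* in dorsal arch 1-like cells and *hgfa* and *pdgfrb* in ventral arch-like cells, and none lies past the lower line.

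Ventral arch-like cells include cells of arch 1 and arch 2, and *hoxa2b* and *hoxb2a* are expressed in arch 2 but not in arch 1. The class was therefore divided into cells with a UMI of either gene (470 DMSO and 457 YM cells) and cells with none (235 and 175). A cell of arch 2 can lack such a UMI by chance of sampling. The 11 posterior arch markers together were at 289 and 311 CPM with such a UMI and at 328 and 271 CPM without. In dorsal arch 1-like cells they were at 14.4 and 15.7 CPM. Cells without a *Hox* UMI are therefore not named as arch 1 cells. With a *Hox* UMI, *apln* was at 195 CPM (675 UMIs) in DMSO and 299 CPM (1184 UMIs) in YM, a log2 ratio of 0.61 (0.48 to 0.75). Without one, it was at 181 CPM (303 UMIs) and 173 CPM (261 UMIs), a log2 ratio of -0.07 (-0.31 to 0.17). The *apln* levels of the 2 sets overlapped in DMSO and were apart in YM.

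*pdgfrb* followed the same split. With a *Hox* UMI it was at 5.49 CPM (19 UMIs in 18 cells) in DMSO and 16.6 CPM (66 UMIs in 52 cells) in YM, a log2 ratio of 1.60 (0.85 to 2.42). Without one it was at 13.8 and 13.9 CPM, a log2 ratio of 0.01 (-0.91 to 0.93). For *hgfa*, the log2 ratio was 0.98 (0.44 to 1.54) with a *Hox* UMI, from 42 to 95 UMIs, and -0.79 (-1.93 to 0.27) without, from 23 to 12 UMIs. *pdgfra* had log2 ratios of 0.35 (0.17 to 0.53) and 0.15 (-0.11 to 0.41). *vegfaa* had -0.01 and -0.02, and *pdgfbb* had 0.11 (-0.07 to 0.29) and -0.10 (-0.40 to 0.19). The difference between the 2 sets was not tested, as each has 1 library per condition.

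**Figure D4:**
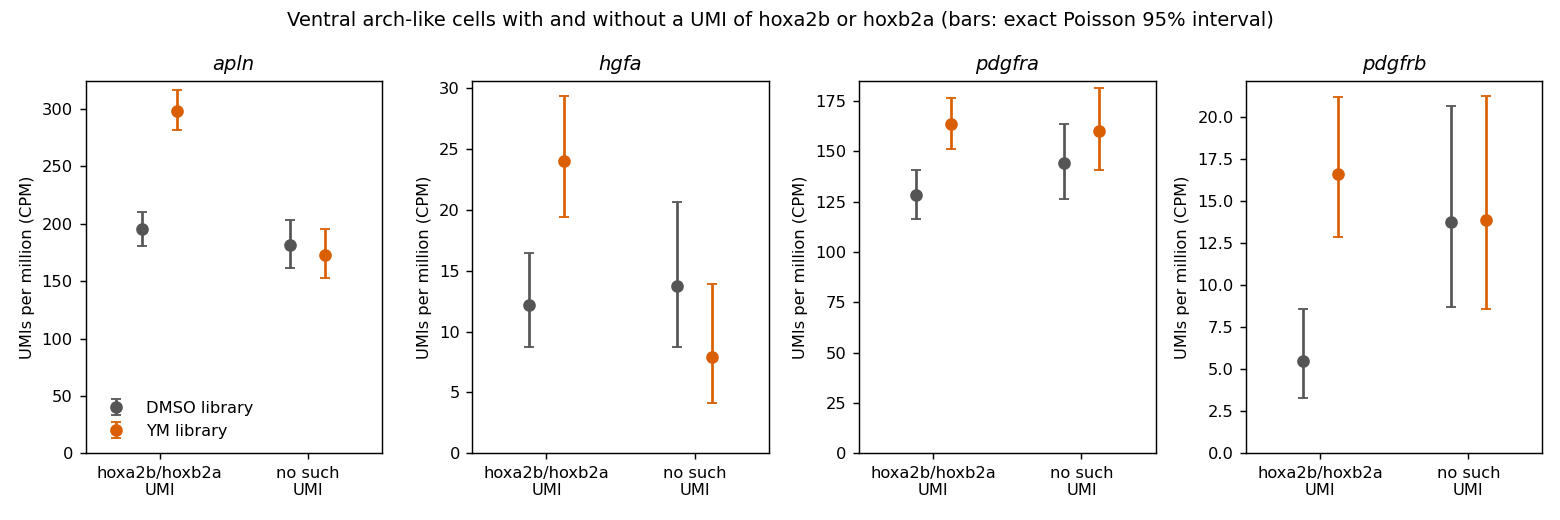
Level of *apln*, *hgfa*, *pdgfra* and *pdgfrb* (CPM) in ventral arch-like cells with and without a UMI of *hoxa2b* or *hoxb2a*, DMSO in grey and YM in orange, with exact Poisson 95% intervals. In cells with such a UMI, *apln* was at 195 CPM in DMSO and 299 CPM in YM, and without one the intervals of the libraries overlap for all 4 genes.

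The split was also made without the clusters, after seeing the data. Among all kept cells with a *hand2* UMI, a gene of the ventral arches, those with a *Hox* UMI had log2 ratios of 0.44 for *apln*, 1.14 for *hgfa* and 1.75 for *pdgfrb*, and those without had 0.03, 0.13 and 0.27. This choice of cells did not leave out the ventral arch-like cells, so it is not a separate check of the split. The study also describes *hand2* itself as downregulated by YM. Cells chosen by a *hand2* UMI may therefore not be alike in both libraries, and no effect of YM is read from these ratios. Marker levels of the ventral cells differed between the libraries as well. With a *Hox* UMI, the 9 ventral markers together were at 2437 CPM in DMSO and 1342 CPM in YM. The 6 dorsal arch 2 markers together were at 473 and 522 CPM. Of these, *jag1b* was at 32.9 and 61.8 CPM, *pou3f3b* at 24.3 and 36.8 CPM and *pou3f3a* at 5.20 and 7.06 CPM. *hoxa2b* was at 210 and 226 CPM, *epha4l* at 53.2 and 58.3 CPM and *hoxb2a* at 148 and 131 CPM. Without a *Hox* UMI, the ventral markers were at 2298 and 1010 CPM. The dorsal arch 2 markers were then at 114 and 142 CPM, where the split itself removes *hoxa2b* and *hoxb2a* from the 6. There *jag1b* was at 46.1 and 75.5 CPM, *epha4l* at 28.1 and 33.1 CPM, *pou3f3b* at 33.5 and 27.1 CPM and *pou3f3a* at 6.58 and 5.96 CPM. The part of these markers in the *apln*, *hgfa* and *pdgfrb* values was not tested.

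Ventral arch-like cells were also divided by 14 genes of the intermediate domain of the arches, named as known markers in the methods of the study. In thinned ventral arch-like cells, those with UMIs of at least 3 of these genes numbered 285 of 680 in DMSO and 114 of 621 in YM. *apln* was lower in these cells in both libraries, at 139.9 CPM against 226 CPM in the other thinned cells in DMSO, and at 165 CPM against 287 CPM in YM. As the libraries differ in these 14 genes, the split does not hold like cells in both, and no ratio between the libraries is read within it.

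The 6 pathway lists of ligands, receptors and hypoxia genes, which include the 7 genes, had 1 gene called over crest-like cells. Of all 10996 features tested there, 4.16% were called, and with so few genes the counts are not a result about the lists. Of 4 apelin genes 3 had enough UMIs, of 8 adrenomedullin genes 4, of 15 Vegf genes 8, of 10 Hgf genes 3 and of 9 Pdgf genes 6, and none of these was called. Of 36 hypoxia genes 23 were tested, and 1, *bnip3la*, a mitophagy receptor gene, was called higher (30 and 64 UMIs, log2 ratio 0.63, with an interval that includes 0). Medians of the 6 lists lay between -0.20 and 0.11, beside -0.05 for all features. The main receptors for Vegf, Hgf and Apelin were sparse in crest-like cells. *kdrl*, a Vegf receptor of endothelium, had 6.36 CPM in DMSO and 5.18 CPM in YM, *flt1* had no UMI, *met*, the Hgf receptor, had 11 and 21 UMIs, and *aplnra* and *aplnrb*, the apelin receptors, had 6.41 and 6.49 CPM and 0.38 and 0.41 CPM.

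The genes with the most UMIs of the other lists were *ramp2* for adrenomedullin, a partner of its receptor (26.8 CPM in DMSO and 26.9 CPM in YM), *nrp2a* for Vegf, a co-receptor (51.0 and 54.5 CPM), *gab1* for Hgf, an adaptor of Met (24.9 and 26.4 CPM), and *hif1ab* for hypoxia, the oxygen-regulated factor (88.7 and 85.5 CPM). By class, the genes called besides the 7 had few UMIs. At most 14 genes of a list were tested in a class, and 5.41% to 6.85% of all features were called by class. These calls are therefore not a result about the lists. Higher in YM were *aplnra* in posterior arch-like cells (log2 ratio 0.69, -0.22 to 1.67), *ldha*, a glycolytic enzyme, in dorsal arch 2-like cells (0.77, -0.06 to 1.68), and *igfbp1a*, an Igf-binding protein, in frontonasal-like (0.62, 0.01 to 1.26) and ventral arch-like cells (0.76, -0.04 to 1.60). Lower in YM were *apela*, the second apelin receptor ligand, in dorsal arch 1-like cells (89 and 75 UMIs, -0.71, -1.17 to -0.25) and *vhl*, which targets hypoxia factors for breakdown, in ventral arch-like cells (39 and 21 UMIs, -0.99, -1.83 to -0.19). *vegfab*, the paralog of *vegfaa*, was lower in posterior arch-like cells (34 and 32 UMIs, -0.62, -1.37 to 0.12) and *vegfc*, the lymphatic Vegf, in dorsal arch 2-like cells (30 and 39 UMIs, -0.61, -1.33 to 0.13). In dorsal arch 1-like cells, the log2 ratio of *apela* was thus negative like that of *apln*, while that of *vegfaa* was positive.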

How the data were processed

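Deposited by the authors were UMI counts as Cell Ranger gave them, one matrix per library, neither normalized nor filtered for cells (25434 features in 6794880 barcodes in each). The submitters' processing notes name Cell Ranger 5.0.1 and the build GRCz11, whereas the count file headers name Cell Ranger 4. Features were summed by symbol. The 7 genes, the pathway lists and the tests were chosen with earlier results of these data known.

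Cells were called in Python 3.11.15 (numpy 2.4.6, scipy 1.17.1) by an order-of-magnitude rule and a comparison of other barcodes of at least 500 UMIs with near-empty barcodes. The limits of the methods followed: 200 to 3000 (DMSO) or 3500 (YM) genes and under 5% mitochondrial UMIs. Doublets were not removed; Scrublet (scanpy 1.11.5) marked 1 DMSO cell and 0 YM cells, so its call had not worked. Seurat 5.3.0 (R 4.3.3) clustered both libraries together (1940 of 2000 variable genes, without 60 that were among the 7 genes, the pathway lists, the genes the study lists as changed and similar lists; 30 principal components; cell cycle regression; resolution 0.8), giving 17 clusters.

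A cluster was named from fixed markers when at least 3 of a class were raised 2-fold and more of them than of any other class were among its 10 leading genes. This last limit was relaxed after the clusters were seen, for 1 dorsal arch 1-like cluster that 2 ventral markers also lead. The classes are rebuilt and are not the study's clusters. UMIs were summed per library and class. A CPM has an exact Poisson interval, a ratio an exact conditional binomial one and a share an exact (Clopper-Pearson) one. A share of 0 is given the limit that 3 counts allow. TMM factors came from edgeR 4.0.16. The code was tested on simulated data.

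Genes named are the 7, called genes of the pathway lists, the gene with most UMIs of each list, and the 3 genes most like each of the 7 over clusters, among genes of at least 20 CPM. The alternatives changed calling, filters, doublets, clustering, scaling, depth, free RNA and thresholds. No sequence or position is given, as no genome of build GRCz11 was used here.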

Additional observations from a re-analysis of the deposited data

Results flagged for a closer look

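*apln* differed between classes in the direction of its YM to DMSO ratio, with intervals that exclude 0. The log2 ratio was 0.47 in ventral arch-like, 0.27 in dorsal arch 2-like and 0.26 in posterior arch-like cells, and -0.19 in dorsal arch 1-like and -0.40 in *gata3*-positive-like cells. *pdgfrb* had a log2 ratio of 0.96 in ventral arch-like and -0.29 in frontonasal-like cells. Of the classes named for *apln*, only ventral arch-like cells had thinned shares with intervals apart between the libraries. With 1 library per condition, these differences between classes were not tested.

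*pdgfrb* was also high in a cluster outside the classes compared, of 14 DMSO and 32 YM cells, which took no name. It is led by *rbpms2b* and *cdh5*. Its *pdgfrb* level was 386 CPM in DMSO (24 UMIs in 9 cells) and 374 CPM in YM (62 UMIs in 20 cells), beside 20.5 and 22.3 CPM in crest-like cells. Of 9 mural markers 5 had a UMI there in each library, with *notch3* at 837 and 759 CPM (126 and 133 CPM in crest-like cells), while *acta2*, *tagln* and *rgs5a* were at 0 in both. Of 15 frontonasal markers 8 and 13 had a UMI, with *lmx1bb* at 338 and 211 CPM and *pitx3* at 0 in both. Of 15 endothelial markers 1 had a UMI in DMSO, *cdh5* at 338 CPM, and 13 in YM, with *cdh5* at 542 CPM. No ratio is read from these cells.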

How the results depend on the processing

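No paired analysis was possible because each condition has 1 library. Over all crest-like cells, the log2 ratios of the 7 genes stayed within their intervals under every alternative run, except that of *hgfa*, which was -0.0284 in cells thinned to 3500 UMIs. The count of values at least 1.5-fold higher in YM, 3 of 32, became 1 at a resolution of 0.3, where no cluster took the ventral arch name and the call was *pdgfrb* in dorsal arch 2-like cells, 5 with all 2000 variable genes, 8 at a smaller fold threshold and 1 at a fold of 2. It was 2 of 25 in cells thinned to 3500 UMIs, *pdgfrb* in dorsal arch 2-like and ventral arch-like cells, and 4 where 20 UMIs, or 1 UMI in each library, were enough. The count of lower values, 0, became 2 at the smaller threshold and 2 where 1 UMI in each library was enough. At a resolution of 0.3, 3 genes instead of 5 were at least 2-fold above the other crest-like cells in a class in DMSO.

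The ratio in ventral arch-like cells ranged from 0.35 to 0.57 for *apln*, 0.08 to 0.82 for *hgfa* and 0.62 to 1.29 for *pdgfrb*, and that of *vegfaa* in dorsal arch 1-like cells from 0.49 to 1.37. In ventral arch-like cells with a *Hox* UMI the ranges for *apln*, *hgfa* and *pdgfrb* were 0.44 to 0.93, 0.70 to 1.56 and 0.97 to 1.75, of which those without clusters or with thinning were added after seeing the data. In those without, *pdgfrb* ranged from -0.53 to 0.74 and *hgfa* from -1.76 to 0.47, so no direction is read there. The ranges with and without a *Hox* UMI include the cells chosen by a *hand2* UMI, which may not be alike in both libraries. No value that had been called changed sign. The other moved values were 51, each for a single gene and class, among them shares at another depth, and the causes were not tested. Levels under about 10 CPM rest on few UMIs, which limits *vegfaa*, *adma* outside frontonasal-like cells and *pdgfrb* in the arches.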

Other observations

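*pdgfab*, a ligand gene for Pdgfra, had too few UMIs in frontonasal-like cells for the rule on named genes and is given after its values were seen. It had 1 UMI there in DMSO and 18 UMIs in 18 cells in YM, a log2 ratio of 3.61 (0.95 to 8.99). Over all crest-like cells it had 113 and 219 UMIs, a log2 ratio of 0.49 (0.15 to 0.83), and in ventral arch-like cells 9.74 and 14.6 CPM (0.58, 0.06 to 1.12). *pdgfra*, its receptor gene, had a log2 ratio of 0.01 in frontonasal-like and 0.28 in ventral arch-like cells.

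Outside crest-like cells and the cluster with no name, few UMIs of the 7 genes were found, but these classes hold few cells. Their CPM are therefore not read as low. *pdgfbb* had 5 UMIs in erythroid-like cells of each library (33.0 CPM in DMSO and 21.6 CPM in YM). *vegfaa* had 3 UMIs in the 6 skeletal muscle-like cells of YM (29.0 CPM). Pigment-like cells had no UMI of *apln*, *adma*, *vegfaa*, *hgfa* or *pdgfrb* in either library. With 9 DMSO and 11 YM cells, this allows up to 56.5 and 35.8 CPM. Epidermal-like cells, 47 in each library, had none of *hgfa* or *pdgfrb*, which allows up to 12.6 and 15.5 CPM.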
